A study of Mus musculus with 2 samples.

Results

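The chemokine ligand and receptor genes are 55 of the 21802 protein-coding genes of GENCODE release M21 used here, 36 ligands and 19 receptors. They were taken by symbol alone, as every protein-coding gene whose name begins with Ccl, Cxcl, Ccr, Cxcr or Cx3c and goes on with a number, or with a letter and a number. No measured value entered this rule, though the members were chosen with earlier results of these data known. Cxcl11, annotated as a polymorphic pseudogene, was not taken. Their chromatin was measured by DNase-seq, in which the enzyme DNase I cuts accessible DNA in nuclei and a pile of cuts marks an open region. The tissue was adrenal gland of adult males aged 18 to 20 months, of the hybrid strain B6CASTF1/J. The labels name no treatment, transgene or altered allele. There were 2 libraries in 1 group, labelled biological replicates 1 and 2, so there was no condition to compare and no test was made. Values are given for each library, with the mean and SD over both where that helps, beside the same value over all protein-coding genes.

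Chemokines are small secreted proteins that steer the movement of leukocytes by binding receptors coupled to G proteins. Inflammatory chemokines are switched on by NF-kB, AP-1 and interferon-driven factors when a tissue is injured or infected, whereas homeostatic ones are made without a trigger and place cells within organs. Many of the genes arose by tandem duplication and lie in clusters, and some copies are nearly identical in sequence.

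A gene was called open where a peak of each library, overlapping by at least 1 bp, lay within 1 kb of the start of any of its protein-coding transcripts. The peak height is the authors' depth-normalised signal, and it came in steps of 0.00531 in replicate 1 and 0.00750 in replicate 2. Sequences of 4 open promoters are shown first, as the stretches outside untranslated regions that held a shared footprint at the 4 tallest such promoters, on the strand of the gene and in the mm10 assembly. Capitals mark bases that lay inside a footprint, a short stretch protected from cutting, in both libraries. Cxcr4 is at chr1:128592294-128592460, Cx3cl1 at chr8:94772265-94772320, Cxcl12 at chr6:117168656-117168780 and Ccl2 at chr11:82035441-82035570.
Cxcr4: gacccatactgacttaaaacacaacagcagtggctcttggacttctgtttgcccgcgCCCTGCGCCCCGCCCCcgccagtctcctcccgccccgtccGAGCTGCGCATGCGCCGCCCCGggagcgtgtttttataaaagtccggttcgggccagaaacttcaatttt
Cx3cl1: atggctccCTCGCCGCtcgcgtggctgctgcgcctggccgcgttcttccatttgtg
Cxcl12: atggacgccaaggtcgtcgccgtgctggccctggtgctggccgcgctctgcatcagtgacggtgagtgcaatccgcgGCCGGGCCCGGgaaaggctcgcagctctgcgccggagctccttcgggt
Ccl2: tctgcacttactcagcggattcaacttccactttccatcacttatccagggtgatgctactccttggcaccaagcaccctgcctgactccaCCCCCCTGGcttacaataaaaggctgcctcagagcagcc

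Both footprints of the Cxcr4 stretch lay upstream of the start, centred 59 and 102 bases before it, and both held the SP/KLF sequence GGGCGG on one strand or the other. The nearer one also held a match to the NRF1 motif, which was added to the search after this sequence was seen. The Cx3cl1 and Cxcl12 stretches begin at the first codon, so their capitals lie in or beyond the coding sequence, whereas the Ccl2 footprint lay 35 bases before the start. The peak of Ccl25 fell wholly in annotated untranslated sequence, so only its widest shared footprint is given, at chr8:4325115-4325133 with 5 flanking bases on each side.
Ccl25: cctgcTCAGCGCGCTCTGCTATTGgtcag
This footprint overlapped a CCAAT sequence, the motif of the factor NFY, on the other strand.

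Of the 55 chemokine genes, 16 were open in both libraries, or 29.1%, against 64.5% of all protein-coding genes. Ligands and receptors were open about equally often, 11 of 36 ligands (30.6%) and 5 of 19 receptors (26.3%). The open ligands were Ccl25, Cx3cl1, Ccl27a, Cxcl12, Ccl2, Cxcl16, Cxcl10, Cxcl1, Ccl7, Cxcl14 and Ccl6. The open receptors were Cxcr4, Ccr10, Ccrl2, Cxcr3 and Ccr9. Most of these peaks were low. The median height of the 16 open chemokine promoters was 1.19, against 3.90 over the 14066 open genes, and only Ccl25 and Cxcr4 exceeded that median (12.5%, where 50% of open genes do by definition). In a whole organ, strong opening in few cells and weak opening in many cells cannot be told apart.

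**Figure D1:**
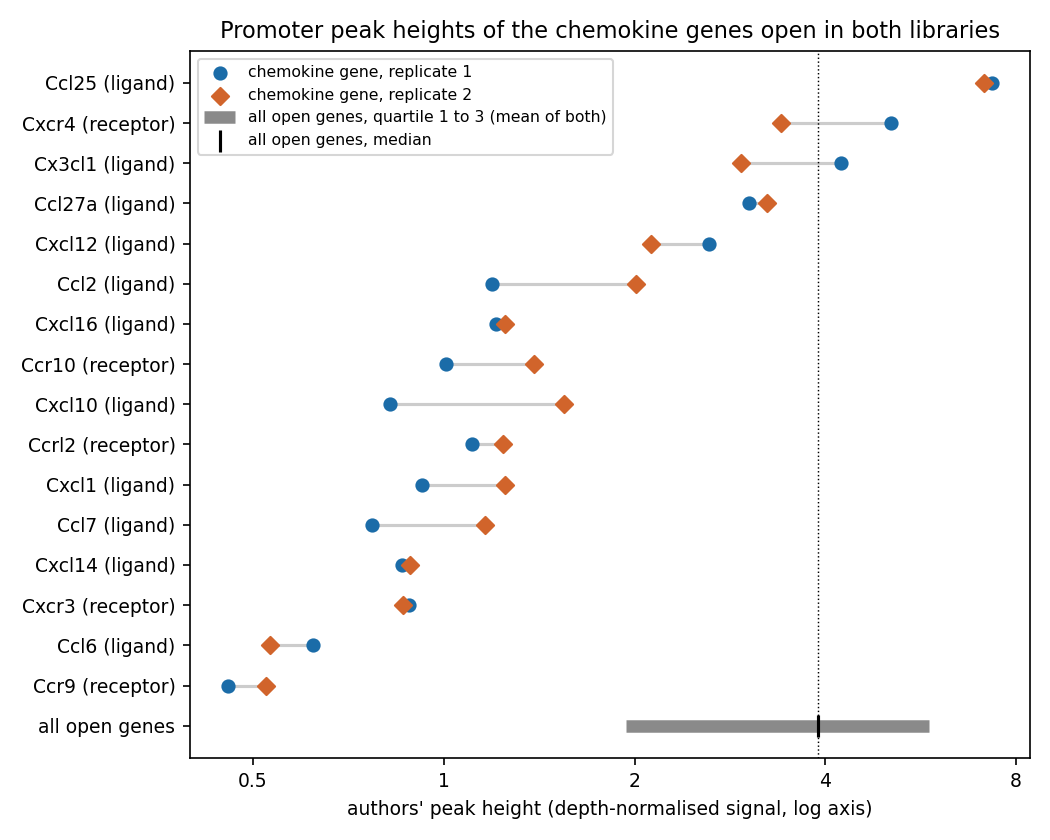
Authors' peak height (log axis) of the tallest promoter region of each open chemokine gene, as a circle for replicate 1 and a diamond for replicate 2, above the quartile range and median of all open genes. Ccl25 stands alone near 7, and 11 of the 16 genes have both heights at or below 2.01.

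Among the homeostatic ligands, Ccl25 had the tallest peak of the family. This ligand draws T cells to the thymus and gut, and its promoter height was 7.32 in replicate 1 and 7.12 in replicate 2, rank 1766 of 14066 open genes. The peak, at chr8:4325061-4325300, also lay within 1 kb of a start of Elavl1, which encodes a widely expressed RNA-binding protein, so the peak cannot be given to Ccl25 alone. Ccl27a, which attracts T cells to skin through Ccr10, had 3.03 and 3.24 (3.13 ± 0.151, SD, n = 2) at chr4:41774101-41774260. Of the 31-base words within 1 kb of the annotated 5′ end of Ccl27a, 68.5% also occur elsewhere in the reference. Reads there may thus have had more than 1 possible origin.

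Of the open ligands placed in neither the homeostatic nor an inflammatory group, Cx3cl1 and Cxcl12 were among the taller and Cxcl16 and Cxcl14 were not. Cxcl12, which retains haematopoietic and other cells in their niches, had 2.62 in replicate 1 and 2.12 in replicate 2 at chr6:117168521-117168780, a region that covers its 5′ untranslated region. Cx3cl1, fractalkine, is anchored in the membranes of endothelial and other cells. Its promoter, at chr8:94772061-94772320, had 4.24 and 2.95, with a second and lower region of 0.919 and 1.1 that lay 709 bp from a start. Cxcl16, another membrane-bound ligand, had 1.21 and 1.25, in a region shared with a start of Zmynd15. Cxcl14, made by epithelia and stroma, had 0.860 and 0.885. The regions of Cxcl12, Cx3cl1 and Cxcl14 covered a start, and that of Cxcl16 lay 84 bp from one.

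The inflammatory ligands were open at low height where they were open at all. Ccl2, which recruits monocytes through Ccr2, had 1.19 in replicate 1 and 2.01 in replicate 2 at chr11:82035441-82035700. Its neighbour Ccl7, with a like function, had 0.770 and 1.16. Ccl6, a mouse chemokine of myeloid cells, had 0.621 and 0.532, which is 117 and 71 steps and thus cuts if 1 step is 1 cut. These were 3 of 13 inflammatory CC ligands. Cxcl1, the ligand of Cxcr2 that calls in neutrophils, had 0.924 and 1.25 and was 1 of 5 in its group. Cxcl10, induced by interferon and bound by Cxcr3, had 0.823 and 1.55 at chr5:92348824-92349042, inside an intron of Art3, while its neighbour Cxcl9 had no promoter peak in either library.

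Among receptors Cxcr4 stood apart. The receptor of Cxcl12 had 5.07 in replicate 1 and 3.40 in replicate 2 at chr1:128592241-128592460, and 2 lower regions within 1 kb of a start, at 0.717 and 1.00 in the intron and at 0.924 and 0.870 upstream. The tallest regions of the other open receptors had heights from 0.457 to 1.39. Ccrl2, an atypical receptor that binds chemerin and does not signal as a chemokine receptor does, had 1.11 and 1.24. Cxcr3, found on activated T cells, had 0.881 and 0.862 in its own intron, 209 bp from the start. Ccr10 had 1.01 and 1.39 in a region 678 bp from its start and within reach of a start of Cntnap1. A second region of Ccr10, in a coding exon and 743 bp from the start, had 0.982 and 0.990. Ccr9, the receptor of Ccl25, had 0.457 and 0.525 in a region also near a start of Slc6a20a. Lower regions within 1 kb of a start of Ccr9 had 0.319 and 0.352, and 0.446 and 0.450 in an intron.

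Both partners were open for Cxcl12 with Cxcr4, Cxcl10 with Cxcr3, Ccl25 with Ccr9 and Ccl27a with Ccr10. The ligand alone was open for Cx3cl1 with Cx3cr1, Ccl2 with Ccr2, Cxcl1 with Cxcr2 and Cxcl16 with Cxcr6. Of other pairs named in this text, the receptor alone was open for Ccl28 with Ccr10. Neither gene was open for Ccl28 with Ccr3, Ccl17 and Ccl22 with Ccr4, and Cxcl3 and Cxcl5 with Cxcr2. By the tallest region of each gene, a start of another gene lay within 1 kb at 4 of the 16 (25%), against 17.6% of open genes. These include both members of the Ccl25 and Ccr9 pair. Among the tallest regions of the open members, that of Ccr10 lay farthest from a start. Just outside the limit, Ccl5 had its nearest peak at 1038 bp in replicate 1, and Ccl17 at 1210 bp in replicate 1 and 1308 bp in replicate 2.

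A promoter peak in replicate 2 alone was found at 5 chemokine genes, and none had one in replicate 1 alone. These were 9.09% of the members. Of all genes, 4.34% had a promoter peak in 1 library only. The 5 members were Ccl9 with a height of 0.435 and Ccl24 with 0.6, both ligands of the inflammatory CC group, Cxcl3 and Cxcl5 with 0.405 each, which act on neutrophils through Cxcr2, and Cxcr1 with 0.532. Replicate 2 had the longer peak list, 118249 peaks against 98630, and over all genes 621 had a promoter peak of replicate 2 without being open, against 455 for replicate 1.

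The other 34 members had no listed promoter peak. In the inflammatory CC group these were Ccl1, Ccl3, Ccl4, Ccl5, Ccl8, Ccl11, Ccl12 and Ccl26, which act on monocytes, lymphocytes and eosinophils. Among homeostatic or dual CC ligands they were Ccl17, Ccl19, Ccl20, Ccl21a, Ccl21b, Ccl22, Ccl27b and Ccl28, several of which guide dendritic cells and lymphocytes. The CXC ligands without one were Cxcl2, Cxcl9, Cxcl13, Cxcl15 and Cxcl17. The receptors without one included Ccr1, Ccr2, Ccr4, Ccr6, Ccr7, Cxcr2, Cxcr5, Cxcr6 and Cx3cr1, known from leukocytes. Near-identical copies limit what can be seen at some of these. All 31-base words within 1 kb of the annotated 5′ ends of Ccl21b and Ccl27b occur elsewhere in the reference. So do 83.7% at Ccl21a and 83.1% at Ccl19, and 9 of the 55 members exceeded 10%.

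The deposited false discovery rates, listed per stretch of positions only where under 0.05, gave the same split. Rates and peaks come from the same 2 libraries, so this match is not independent of the peak calls. All 16 open members and no other had a listed position within 1 kb of a start in both libraries, 29.1% against 65.5% of all genes. Of the 39 members that were not open, 32 had no listed position in either library. The 7 with one in a single library were the 5 named above, Cxcl2 with 10 listed bp in replicate 1 and Ccr6 with 2 listed bp in replicate 2, with lowest rates of 0.0415 at Cxcl2 and 0.0413 at Ccr6. Lowest rates at the open members ran from 2.15e-69 at Ccl25 to 0.0166 at Ccr10 in replicate 1.

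Chemokine genes are poor in CpG around their 5′ ends, and the share that was open followed that content. The median ratio of observed to expected CpG in the 1 kb around the annotated 5′ end was 0.211, against 0.552 over all genes, and 89.1% of members lay under 0.6, against 54.1%. Under that limit, 10 of 49 members were open (20.4%), against 37.9% of all such genes. At or above it, 6 of 6 were open, against 95.9%. These were Ccl25, Cxcr4, Cxcl12, Cxcl16, Cxcl14 and Ccr9.

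In narrower classes the shares were close in all but 1 of 4. With a ratio under 0.2, 3 of 26 members were open (11.5%), against 13.0% of all genes in the class. From 0.2 to under 0.4 the count was 3 of 18 (16.7%), against 38.4%, and from 0.4 to under 0.6 it was 4 of 5 (80.0%), against 77.8%. Heights were lower too, over both broad classes. Open members with CpG-poor 5′ ends had a median of 1.18, against 2.18 for all such open genes, and those with CpG-rich 5′ ends a median of 1.80, against 4.62. In the class from 0.4 to under 0.6 the gap was smaller, 2.16 against 2.58. This grouping by CpG was added after the data had been seen, and its part in the low heights was not tested.

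**Figure D2:**
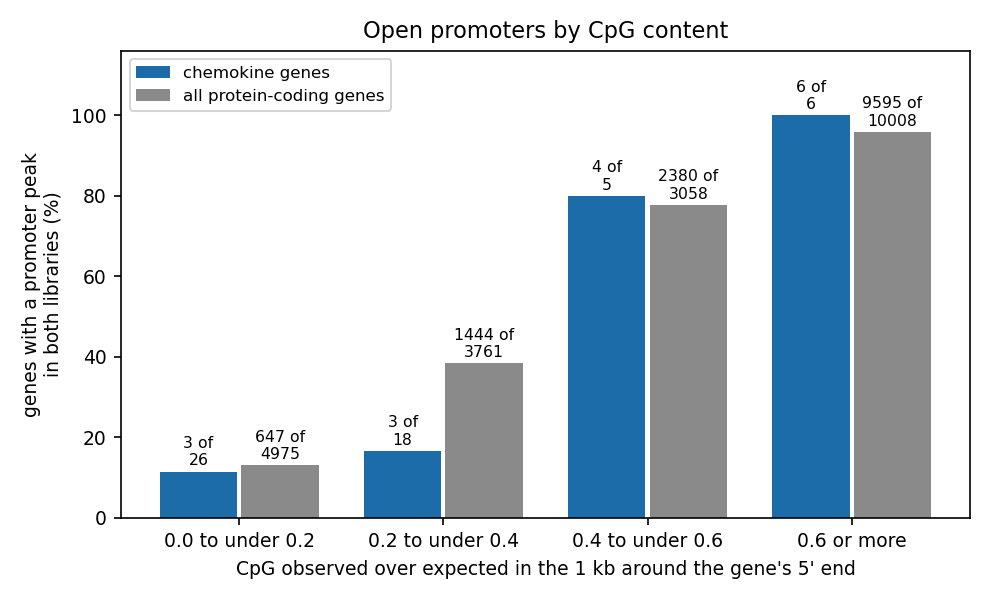
Percent of genes with a promoter peak in both libraries, by the ratio of observed to expected CpG around the gene's 5′ end, for chemokine genes (left bar of each pair) and all protein-coding genes (right bar), with counts above the bars. The bars of a pair are close except from 0.2 to under 0.4, where they stand at 16.7% and 38.4%.

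Footprints recurred at 13 of the 16 open members (81.2%), against 92.1% of open genes, where a footprint of each library overlaps by at least 1 bp inside the promoter region. Shared footprints were counted as overlapping pairs, so a footprint that overlapped several of the other library counted more than once. Open members held a median of 2 such pairs, against 3 per open gene. Ccl25, Ccl27a and Cxcl12 had 4 pairs each, though replicate 1 had only 3 footprints at Ccl25. Cxcr4, Cx3cl1 and Cxcl16 had 3 pairs each, which at Cxcl16 included overlaps of 1 bp and 3 bp. Ccr10, Ccl6 and Ccr9 had none. All 3 of these promoters had heights under 1.4 in both libraries. So did Cxcl16, Ccrl2, Cxcl1, Ccl7, Cxcl14 and Cxcr3, each of which held at least 1 such pair.

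Motifs of inflammatory induction were present at few promoters. In a window of 200 bp at the centre of each region, an NF-kB match was found at 2 of 16 members (12.5%), against 3.62% of promoter regions, and an AP-1 match (TGANTCA) at 2 (12.5%), against 2.67%. None of the 16 held a match for ISRE, STAT, C/EBP or PU.1, which 1.29%, 3.40%, 4.18% and 1.61% of promoter regions held. GGGCGG, bound by SP and KLF factors, was found at 37.5% of member promoters, against 62.9%, and CCAAT at 18.8%, against 29.0%. Windows with these sequences number 2 to 6, so 1 promoter moves a share by 6.25 percentage points. The NRF1 motif seen at Cxcr4 was in 9.04% of promoter windows.

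The NF-kB matches were at Cxcl1 and Cxcl10, genes that NF-kB is known to induce. Their sequences are given with the matches in capitals, at chr5:90891164-90891194 for Cxcl1 and chr5:92348947-92349002 for Cxcl10, where the second capital stretch is an AP-1 match. Both were chosen after their values were seen.
Cxcl1: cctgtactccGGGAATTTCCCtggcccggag
Cxcl10: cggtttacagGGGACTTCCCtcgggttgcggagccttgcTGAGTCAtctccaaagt
At Cxcl1 a pair of overlapping matches, one on each strand, lay 62 bases before the start, and a footprint of both libraries overlapped the downstream edge. At Cxcl10 the stretch was centred 85 bases before the start. No footprint of either library overlapped the NF-kB match there, and a footprint of replicate 2 alone overlapped the AP-1 match.

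Among members, the largest differences toward replicate 2 were at Cxcl10, Ccl2 and Ccl7. On the log2 scale, replicate 2 minus replicate 1, the height of Cxcl10 differed by 0.92, of Ccl2 by 0.76, of Ccl7 by 0.59, of the receptor Ccr10 by 0.47 and of Cxcl1 by 0.44. Among all open genes these differences stood at percentiles 99.0, 98.0, 96.3, 93.6 and 92.7. In the other direction stood Cxcr4 at -0.58 and Cx3cl1 at -0.52, percentiles 4.30 and 5.92. Ccl6, an inflammatory ligand like Ccl2 and Ccl7, stood at -0.22, percentile 28.2. Replicate 2 was the higher library at 10 of the 16 members, against 43.9% of all open genes, and the median difference was 0.08 over members and -0.05 over all open genes.

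These ranks have to be read against peak height. Among open genes with a mean height under 1.5, the difference between libraries ran from -0.74 at percentile 5 to 0.84 at percentile 95, so Cxcl10 lay beyond it and Ccl7, Cxcl1 and Ccr10 within it. Among those of 1.5 or more, the limits were -0.51 and 0.44, and Ccl2, Cxcr4 and Cx3cl1 lay beyond them. Of markers for other cells, S100a8, which neutrophils express, had 0.844 in replicate 1 and 1.78 in replicate 2. Of the other 4 neutrophil markers, Mpo had 0.494 and 0.360, and S100a9, Ly6g and Elane had no promoter peak. Of 7 macrophage markers, Cd68 had 0.807 and 1.1, Spi1 had 1.06 and 1.05, Adgre1 and Mrc1 had a peak in replicate 2 alone, and Csf1r, C1qa and Tyrobp had none. All 4 open endothelial markers were higher in replicate 1, among them Kdr with 2.26 and 1.62, and Pecam1 had a peak in replicate 1 alone. All 4 open adrenal cortex markers were also higher in replicate 1, among them Cyp11a1 with 3.09 and 2.16. Fibroblast and mural markers and chromaffin markers went both ways. The part of these cells in the difference was not tested. The tissue samples are separate by label while the donor entry is shared, so it is not known whether 2 animals were used.

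**Figure D3:**
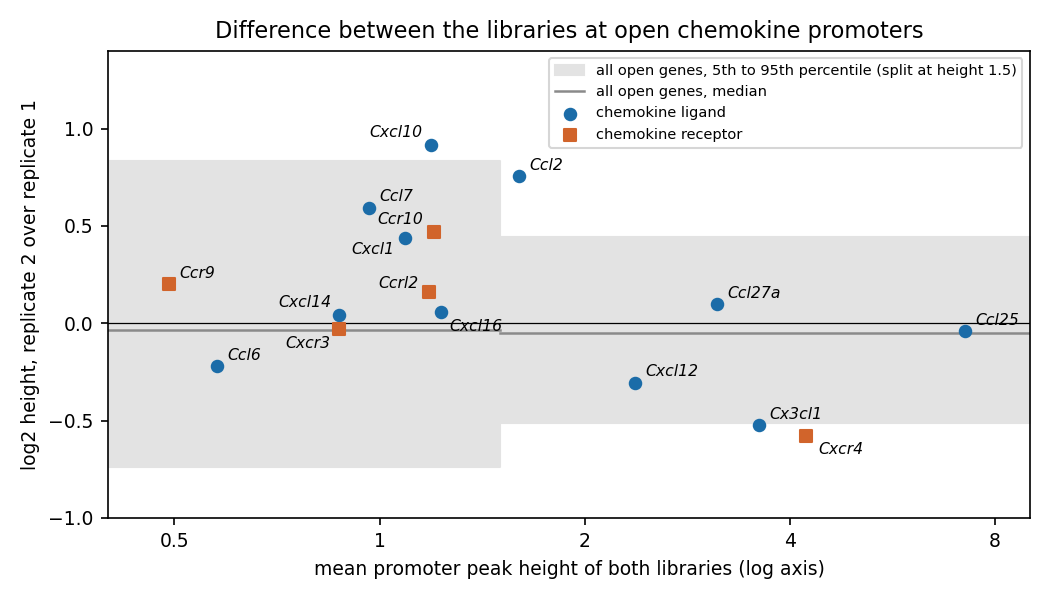
Log2 difference in promoter height, replicate 2 over replicate 1, against mean height (log axis) for the 16 open chemokine genes, ligands as circles and receptors as squares, with the band between percentiles 5 and 95 of all open genes below and above a height of 1.5. Cxcl10 and Ccl2 lie above the band, and Cxcr4 and Cx3cl1 lie below it.

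Beyond the promoters, 131 regions open in both libraries lay over 1 kb from every protein-coding start and within 50 kb of a start of a chemokine gene. At least 1 was found for 47 of the 55 members (85.5%), against 78.1% of all genes, with a median of 3 per member and 2 per gene. The medians of members and of all genes were equal under every other setting tried for distal regions. Because the genes are clustered, 33 regions lay near 2 or more members, and a member had the nearest start for 61 of the 131 (46.6%). By their centres, 71 regions were intergenic, 43 intronic, 8 in coding exons and 8 in untranslated regions. Their median height was 1.16, against 0.976 over all 43097 distal regions, and 20 exceeded 2.94, the height that 1 in 10 distal regions exceeds. A footprint recurred in 80.2% of them, against 74.6%.

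Distal regions also lay near members without an open promoter. Of the 39 members without a promoter peak in both libraries, 31 had a distal region (79.5%), against 58.6% of all genes without such a peak. The most were near Cxcr5, the receptor that leads B cells into follicles, with 11, and near Cxcl17, a mucosal ligand, with 9, though for only 1 of them in each case was it the gene with the nearest start. Cxcl10, Ccl22, Cx3cl1, Ccl17 and Ccr10 had 8 each, Cxcl9 had 7, and Ccrl2, Ccr1 and Ccl28 had 6. For Ccr1, a receptor of monocytes and neutrophils, all 6 had Ccr1 as the nearest protein-coding start. They lay side by side in 1 distant stretch, 42312 to 45338 bp downstream of that start. None was found near Ccl8, Ccl12, Ccl19, Ccl20, Ccl21a, Ccl21b, Ccl27b or Ccr1l1.

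**Figure D4:**
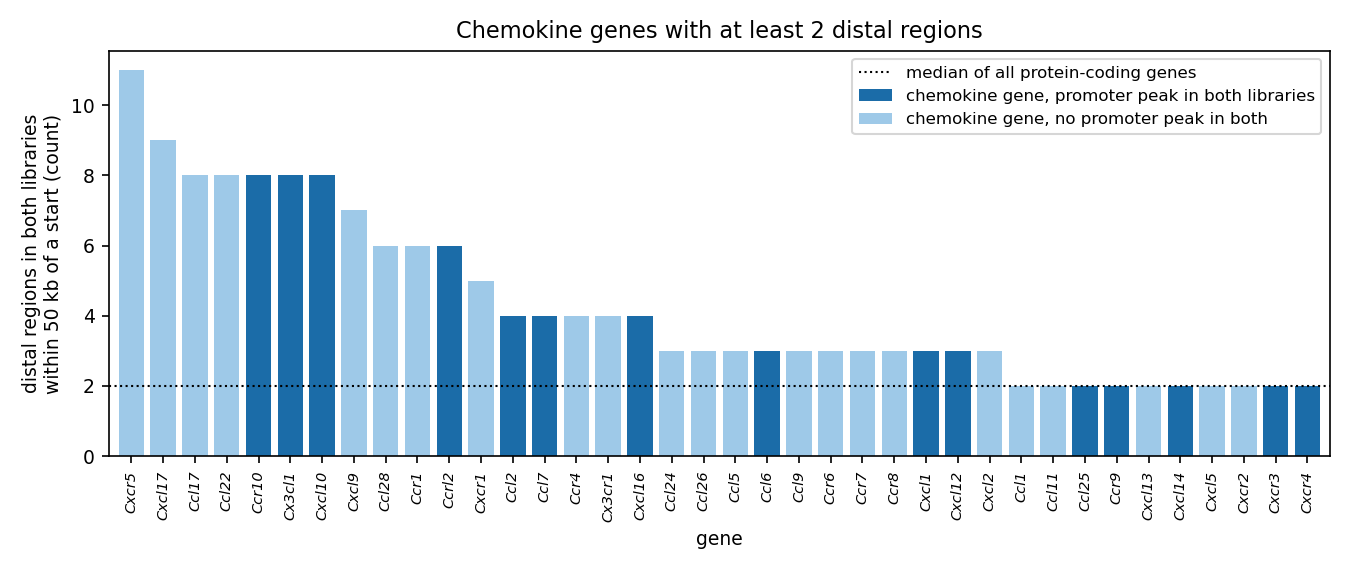
Number of distal regions open in both libraries within 50 kb of a start, for each chemokine gene with at least 2, dark where the gene had a promoter peak in both libraries and light where it did not, with the median of all protein-coding genes as a dotted line. Cxcr5 has 11 and Cxcl17 has 9, both without a promoter peak in both libraries.

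The tallest distal region near a chemokine gene had heights of 9.51 in replicate 1 and 8.09 in replicate 2, at chr8:94704001-94704180. It lay 41410 bp upstream of Ccl22, but the start of Pllp was nearer. The next, at 5.64 and 5.26, lay 43072 bp upstream of Ccl24 and nearer to Rhbdd2. The third, at 5.91 and 4.30, lay 43672 bp downstream of Ccr1, with Ccr1 as the nearest start, and 72.9% of its bases were G or C. Near Cxcr5, regions of 4.98 and 4.0 and of 3.70 and 4.18 both lay closer to a start of Bcl9l.

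Besides the region of Ccr1, those of the 10 tallest whose nearest start belonged to a member without a promoter peak were at Ccr4, Cxcl17 and Cx3cr1. In the intron of Ccr4, a receptor of T cells that binds Ccl17 and Ccl22, a region at chr9:114498321-114498500 had 4.15 and 4.68. It lay 1759 bp from a start and held 4 overlapping pairs of footprints of the 2 libraries. A region 11675 bp upstream of Cxcl17 had 3.63 and 4.84, while another near this gene, at 4.21 and 3.78, lay in an intron of Lipe, the hormone-sensitive lipase of fat and steroid-making cells. A region 3382 bp upstream of Cx3cr1, the fractalkine receptor of monocytes and macrophages, had 3.82 and 4.03 and also lay within 50 kb of Ccr8. Another of the 10 tallest, at 3.79 and 4.38, was near Cxcl9 and Cxcl10 but nearer to Sdad1.

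At the distal regions 8.4% of the 131 windows held an NF-kB match, against 2.86% of all distal windows. AP-1 matches were in 16%, against 12.6%, and the PU.1 sequence GAGGAAGT, bound by a factor of myeloid and B cells, in 4.58%, against 1.75%. Matches were less frequent than over all distal windows for C/EBP, 6.87% against 9.62%, STAT, 4.58% against 5.81%, and the glucocorticoid receptor, 3.82% against 6.02%. The ISRE of interferon response was in 3.82%, against 2.05%, and the CRE sequence TGACGTCA in 3.05%, against 0.562%. CTCF, the factor of chromatin loop anchors, matched 11.5%, against 11.7%, and the sequence CAAGGTCA of NR5A1, the factor of steroidogenic cells, 2.29%, against 2.55%. Overlapping neighbourhoods mean that neighbouring members share these windows. Over the whole regions, 14 of 15 CTCF matches lay under a footprint of both libraries, against 2 of 11 NF-kB matches and 4 of 21 AP-1 matches.

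Both NF-kB and CRE matches occurred in an intron of Ccl28, a mucosal ligand of Ccr10 and Ccr3 with no promoter peak. The region, 8002 bp from the start, had heights of 2.02 and 2.70. Its matches, in capitals below, sit in a tandem repeat of 29 bp at chr13:119631885-119631962, with each CRE match 29 bases from the other and each NF-kB match 29 bases from the other. The remaining distal regions with a shared footprint over an NF-kB or CRE match were 1 upstream of Ccl22, at chr8:94735860-94735889, and 1 downstream of Ccr1, at chr9:123925375-123925402.
Ccl28: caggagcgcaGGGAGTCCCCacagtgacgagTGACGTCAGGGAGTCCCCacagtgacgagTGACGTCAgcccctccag
Ccl22: aagtgaaagtGGAGAGCCCCgaggatcaac
Ccr1: ttctttcaaaTGACGTCAccaccgggag
In the Ccl28 region the second copy of each match lay under a footprint of both libraries. The CRE of the first copy lay under a footprint of replicate 2 alone and its NF-kB match under none.

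The gene clusters differed in how many of their members and how much of their length were open. In the cluster from Ccl2 to Ccl1 on chromosome 11, 144 kb between the outer starts, 2 of 6 members were open and shared regions numbered 5, or 3.47 per 100 kb, against 2.41 over the genome. They gathered at the ends, 3 at Ccl2 and Ccl7 and 2 near Ccl1. At the first end lay both promoters and a region 2429 bp downstream of Ccl7, with 0.940 in replicate 1 and 1.34 in replicate 2. Just outside the cluster, a region 2351 bp upstream of Ccl2 had 0.993 and 1.84. At the other end the regions had 0.627 and 1.28, and 1.25 and 2.41. No shared region lay between these groups, where Ccl11, Ccl12 and Ccl8 start, and low peaks of replicate 2 alone did, with 0.300 and 0.345 beyond Ccl8 and 0.510 close to the regions near Ccl1.

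CTCF matches under a footprint of both libraries lay upstream of this cluster and inside its Ccl1 end. One was on the forward strand at 81996355 to 81996366, in a region of 2.75 in replicate 1 and 2.08 in replicate 2, and one on the reverse strand at 82174964 to 82174975, in the region near Ccl1. Within 50 kb of the cluster, 7 of 8 shared regions were higher in replicate 2, and the region with the forward CTCF match was the exception. Around Cxcl9 and Cxcl10 on chromosome 5, 13 of 13 shared regions were higher in replicate 2. The counts were 4 of 5 around Ccl5 to Ccl4, 5 of 7 around Cxcl5 to Cxcl2, 11 of 20 around Ccl22 to Ccl17 and 8 of 12 around Ccl27a to Ccl21a. These counts include promoter regions. Replicate 2 was the higher library at 69.1% of all distal regions and 66.4% of the 131 near chemokine genes, but at 43.9% of the promoters of all open genes.

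In the cluster from Ccl5 to Ccl4, 1 of 5 members was open, Ccl6, and the tallest region, 2.60 in replicate 1 and 3.37 in replicate 2, lay 4143 bp upstream of Ccl5. Ccl3 and Ccl4 had 1 distal region each within 50 kb. From Ccl22 through Cx3cl1 to Ccl17 on chromosome 8, shared regions were denser, at 9.25 per 100 kb, and 1 of 3 members was open. A region 2428 bp downstream of the start of Ccl17, which attracts T cells through Ccr4, had 3.97 and 3.76, close to the Cx3cl1 promoter in height. From Cxcl5 to Cxcl2, 1 of 5 members was open, and regions near Cxcl2 had 2.78 and 2.23 on one side and 1.42 and 2.52 on the other.

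From Ccl27a to Ccl21a on chromosome 4, 1004 kb held 2 shared regions, 0.199 per 100 kb. Both lay within 1 kb of a start of Ccl27a, and the lower one had 2.03 in replicate 1 and 1.65 in replicate 2. The rest of the stretch held none. This is the stretch with the repeated words named above.

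**Figure D5:**
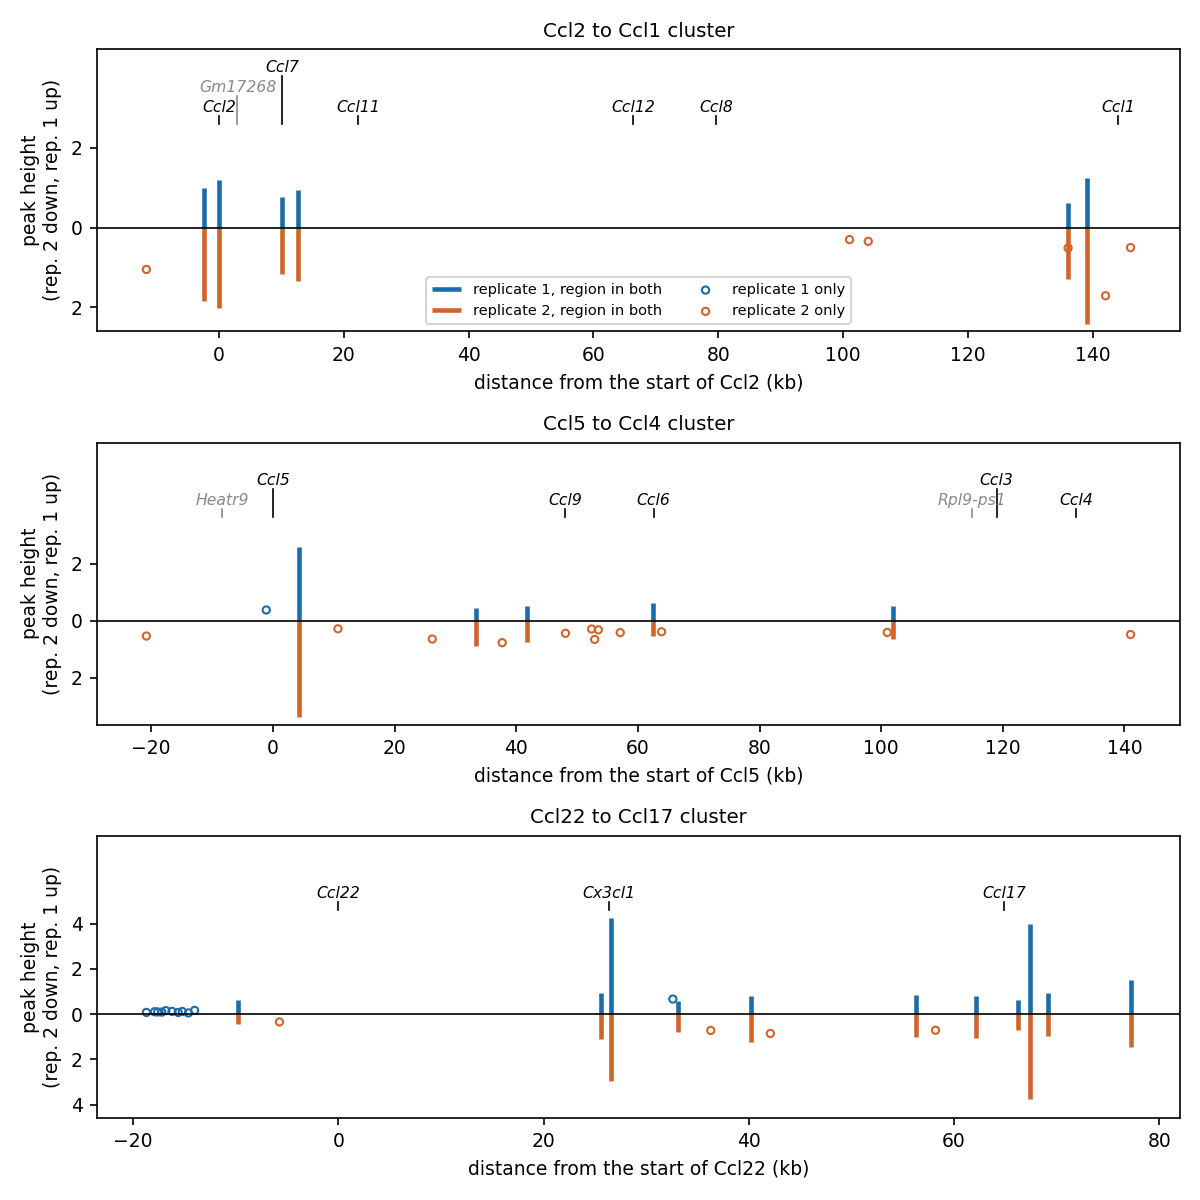
Peak heights of replicate 1 (upward) and replicate 2 (downward) along 3 chemokine clusters and 25 kb to each side, as bars where a region is open in both libraries and as open circles where it is in 1, against distance from the first start in kb; gene names stand at a transcript start, in black for chemokine genes. Bars gather at both ends of the first cluster, and the third has its tallest bars at Cx3cl1 and just beyond Ccl17.

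Other genes of the pathway were taken as lists by function. Of 40 such genes 28 were open (70.0%), near the 64.5% of all genes, with a median height of 5.54. All 12 genes listed for inflammatory transcription were open, and their 5′ ends had a median CpG ratio of 0.738, in the class where 95.9% of all genes were open. Heights averaged 11.1 ± 0.697 at the factor Stat3, 9.19 ± 1.97 at Nfkbia and 8.99 ± 0.859 at Tnfaip3 (SD, n = 2 each), the last pair being inhibitors of NF-kB signalling. Receptor signalling genes were open in 12 of 15 cases, led by Gnb1, a G protein subunit, at 9.99 in replicate 1 and 6.8 in replicate 2. Rgs1, Dock2 and Rac2, genes of leukocyte signalling, each had a peak in 1 library only. Of 5 proteases that trim or shed chemokines 3 were open, among them Adam10 and Adam17, which release Cx3cl1 and Cxcl16 from the membrane.

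Of 8 chemokine genes and receptors with other symbols, 1 was open. This was Ackr3, the scavenging receptor of Cxcl12, at 1.67 in replicate 1 and 2.78 in replicate 2. Pf4, a platelet ligand, and Ackr2, a decoy receptor, had a peak in replicate 1 alone, and Ppbp, Xcl1, Xcr1, Ackr1 and Ackr4 had none.

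Markers of the tissue and of cells that carry chemokine receptors were read by the same rule. Adrenal cortex markers were open at 4 of 6 genes, with Cyp21a1 and Mc2r without a peak, and chromaffin markers at 2 of 6, Chga and Chgb. Endothelial markers were open at 4 of 5 and fibroblast and mural markers at 3 of 5. Of leukocyte markers, 2 of 7 were open for macrophages (Cd68 and Spi1), 0 of 4 for T cells, 1 of 5 for B cells (Pax5, with 3.55 and 3.12) and 2 of 5 for neutrophils (S100a8 and Mpo). Of all genes, 64.5% were open. The median CpG ratio was 0.185 for macrophage, 0.284 for T cell, 0.177 for B cell and 0.148 for neutrophil markers, against 0.552 over all genes. With a ratio under 0.2, 13.0% of all genes were open, and 38.4% from 0.2 to under 0.4. These counts therefore do not measure how many leukocytes were present. The part of these cells in the calls at the receptors was not tested.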

How the data were processed

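DNase-seq was analysed in 2 libraries of adrenal gland, 1 group. Peak height is the authors' deposited signal, in steps of 1 value per library (all heights within 0.05 of a whole step), and a step was taken as 1 cut wherever cuts are stated, which no source says. The deposited footprint score was 0.01 in every row, so positions alone were used, and the deposited false discovery rates (q-values) list only positions under 0.05. Aligner, peak caller and total depth were not given in the sources used here. Files and reference share the mm10 build, and sequences are the reference's, not the hybrid's. The longer of the deposited peak lists was used, with 98630 and 118249 peaks. Peaks of both libraries that overlapped by at least 1 bp were merged into 65778 shared regions with Python 3.11.15, pandas 2.3.3, numpy 2.4.6 and pysam 0.24.0, and figures were drawn with matplotlib 3.10.9. A distal region lay over 1 kb from every protein-coding start. Motifs were searched on both strands, 16 in all, in 200 bp windows for shares and in whole regions for footprints; NF-kB, ISRE, CTCF and NRF1 are given by name. Named genes were every open member, every member with a peak in 1 library, members without one by role (not all are reported here), the 10 members with most distal regions (11 with a tie) and the 10 tallest distal regions; sequences around motifs were picked after their values were seen. The merging and distance steps were tested on simulated data. The members and lists were chosen with earlier results of these data known.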

Additional observations from a re-analysis of the deposited data

How the results depend on the processing

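With 1 library alone, 16 to 21 members had a promoter peak, 15 to 20 of them had a footprint, 17 to 22 members had a listed false discovery rate, and distal regions numbered 182 to 270, with a median of 3.0 to 5.0 per member; the higher value came from replicate 2 in each case. With the shorter deposited peak list 14 members were open, 3 of them receptors, and 72 distal regions remained, a median of 1.00. Peaks above the median height of their list gave a median of 1.00. A window of 5 kb around starts gave 29 open members, 18 ligands and 11 receptors, 26 with a footprint and 30 with a listed rate; 52.7% were open, against 70.7% of all genes, and receptors (57.9%) were then open more often than ligands (50%). Distal limits of 20 kb and 100 kb gave 65 and 221 regions, medians of 1.00 and 5.0, and counting by nearest start gave 61 and 1.00. The all-gene median equalled the members' in each of these distal counts. CpG-poor promoters held 10 open members (20.4%, against 37.9% of all such genes). CpG-rich ones held 6 of 6, near the 95.9% of all such genes, and 6 genes are too few to show a difference from that share. Without genes whose tallest promoter region lay near another gene's start, 12 members were open (21.8%, against 53.2% of all genes). This leaves out Ccr10 and Ccr9 although each had further regions. No paired analysis was possible because there was 1 group. Weak promoters depended most on the choices, with Ccr10, Ccr9, Ccl6 or Cxcl14 lost under stricter ones. Total depth is unknown, so no limit of detection can be set for genes without a listed peak.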
